A study of Mus musculus with 6 samples.

Results

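The mitochondrial respiratory chain genes were followed over 6 oligonucleotide arrays of mouse Th2 cells that had received an siRNA against GATA3 or a control siRNA. A gene was a member when its symbol began with the names of the subunits and Ndufaf assembly factors of complex I (Nduf), of complex II (Sdha to Sdhd), complex III (Uqcr), complex IV (Cox4 to Cox8) or ATP synthase (Atp5). The rule used names and no measured value, but it was set with earlier results of these data known. This gave 90 genes of the 18194 that had a probe set of their own: 6 core subunits, 28 accessory subunits and 8 assembly factors of complex I, 4 genes of complex II, 8 of complex III, 19 of complex IV and 17 of ATP synthase. Ndufa4 and Ndufa4l2 were placed with complex IV, where the protein of Ndufa4 is now known to belong. RefSeq lists 96 protein-coding mouse genes with such names, and those without a probe set naming them alone, such as Ndufa11, Ndufs6 and Cox7b, were not analysed here.

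Splenic CD4 T cells of C57BL/6 mice aged 6 to 8 weeks were activated through the TCR and CD28 and cultured for 5 days in medium that held IL-4 at 100 U/ml and IL-2 at 25 U/ml, and are called Th2-1st. Th2-4th cells had gone on through a rest of 2 days without added cytokine and 5 days of anti-TCR restimulation with IL-2 and anti-IL-4 antibody, a cycle repeated 3 times, so the cultures differ in IL-4 blockade as well as in time. In each culture 1 array held cells with GATA3 siRNA restimulated for 4 h with immobilised anti-TCR antibody (GATA3 siRNA, stimulated), 1 held cells with control siRNA after the same restimulation (control, stimulated) and 1 held control siRNA cells left without it (control, unstimulated). The siRNA had been delivered by nucleofection 24 h before. All 6 conditions therefore share T cell activation, culture with IL-2 and transfection with an siRNA, no array held untransfected or GATA3-silenced unstimulated cells, and the labels do not say how many mice a culture came from. Each condition has 1 array, so no difference below has a replicate check, no p-value was computed, and a ratio compares 2 arrays.

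The respiratory chain passes electrons from NADH and succinate to oxygen and pumps protons across the inner mitochondrial membrane, and ATP synthase uses the proton gradient to make ATP. Complex I takes electrons from NADH, complex II is the succinate dehydrogenase of the citric acid cycle, complex III passes electrons from ubiquinol to cytochrome c and complex IV hands them to oxygen. All subunits of complex II and most of the others are encoded in the nucleus, while the mitochondrial genome supplies a small set of membrane subunits of complexes I, III, IV and ATP synthase. T cells use this chain when at rest, and activated T cells raise glycolysis and also enlarge their mitochondria as they begin to divide.

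The signal is the authors' linear intensity, scaled so that the trimmed mean of each array was 500. Arrays had median signals of 61.8 to 74.2, and the actin 3' over 5' signal ratio was 1.02 to 1.37. Gata3, the gene silenced, read 2853 with GATA3 siRNA, 9261 in stimulated and 4846 in unstimulated control Th2-4th cells, and 1798, 4883 and 3312 in the same conditions of Th2-1st cells. The 7 measured T cell markers lay above the array median on all 6 arrays and none of the 5 measured B cell markers was above it on all 6. The summed signal of 5 stromal markers was 691 with GATA3 siRNA, 2881 in stimulated and 1069 in unstimulated control Th2-4th cells, and 1389, 2977 and 920.4 in Th2-1st cells. Of these 5, Col1a1 and Col3a1 were below the median of each array and 2 were above it on all 6. The summed signal of 5 mast cell and basophil markers was 285, 1226 and 807 in Th2-4th and 153, 329 and 621 in Th2-1st cells in the same order. Mcpt4, Kit and Fcer1a were below each median. Their part in the results was not tested. In such bulk RNA, fewer cells of a type and less RNA per cell cannot be told apart.

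Nuclear respiratory genes are known for binding sites of NRF1, of ETS factors such as GABPA, of YY1 and of ERR alpha in their promoters. RefSeq promoters of 300 bases (250 before and 50 after the start site, GRCm38.p6) were matched by symbol for 74 of the 90 members and searched on both strands. The NRF1 letters (GCGCA and GCGC separated by any single base) were in 17 of the 74 promoters (23.0%), against 5.19% of all 27025 promoters and 14.5% of those of the 3745 bright genes that had one (bright genes are the 4549 of highest mean log2 signal, above a signal of 813). The ETS letters CCGGAAG were in 19 (25.7%), against 9.93% of all promoters and 26.0% of the bright genes. The YY1 letters AANATGGC were in 17 (23.0%), against 6.96% and 12.7%, and the ERR alpha letters TCAAGGTCA in 2 (2.70%), against 0.466% and 0.347%. Any of these motifs was in 46 promoters (62.2%), against 19.8% of all promoters and 44.6% of the bright genes. The E-box CACGTG, added after the signals were seen, was in 6 (8.11%), against 8.09% and 12.9%. A match is a description of letters and not of a bound site, and the motifs searched do not overlap in the promoters printed here.

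Shown here are the promoters of 5 members that passed 2-fold in a comparison and of a complex II gene, chosen with their signals known, so that these letters can be set beside the signals that follow. Of the other members past 2-fold, Ndufaf7 and Ndufa4 hold none of the motifs and Atp5g1 holds an E-box. Capitals mark the motif matches. Ndufaf4 (chr4:24897833-24898132, plus strand) holds an NRF1 match that begins 113 bases before the start site. Ndufb1 (chr12:101975689-101975988, minus strand) holds none of the motifs. Ndufa6 (chr15:82354242-82354541, minus strand) holds one that begins 23 bases after it. Sdhd (chr9:50603800-50604099, minus strand) holds matches to NRF1, ETS and ERR alpha, in that order from 5′ to 3′. Atp5md (chr19:47090598-47090897, minus strand) holds an ETS match that begins 2 bases after the start site, and Cox7a2l (chr17:83514284-83514583, minus strand) holds none of the motifs.
Ndufaf4: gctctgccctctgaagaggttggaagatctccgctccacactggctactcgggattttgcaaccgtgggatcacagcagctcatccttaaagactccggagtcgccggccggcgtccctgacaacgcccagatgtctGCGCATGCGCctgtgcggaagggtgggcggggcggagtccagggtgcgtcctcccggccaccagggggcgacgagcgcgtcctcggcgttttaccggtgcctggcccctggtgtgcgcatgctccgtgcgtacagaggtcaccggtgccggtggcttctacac
Ndufb1: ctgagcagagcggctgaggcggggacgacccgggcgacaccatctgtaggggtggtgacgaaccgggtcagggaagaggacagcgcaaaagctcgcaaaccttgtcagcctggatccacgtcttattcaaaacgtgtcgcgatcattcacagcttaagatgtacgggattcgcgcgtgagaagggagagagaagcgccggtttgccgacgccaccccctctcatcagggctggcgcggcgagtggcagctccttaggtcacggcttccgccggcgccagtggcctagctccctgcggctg
Ndufa6: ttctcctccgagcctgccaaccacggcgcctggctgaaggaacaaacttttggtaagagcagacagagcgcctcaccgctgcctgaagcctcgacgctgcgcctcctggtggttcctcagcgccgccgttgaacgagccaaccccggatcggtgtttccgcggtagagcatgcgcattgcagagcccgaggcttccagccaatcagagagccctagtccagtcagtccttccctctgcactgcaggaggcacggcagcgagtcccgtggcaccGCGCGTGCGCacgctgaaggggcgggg
Sdhd: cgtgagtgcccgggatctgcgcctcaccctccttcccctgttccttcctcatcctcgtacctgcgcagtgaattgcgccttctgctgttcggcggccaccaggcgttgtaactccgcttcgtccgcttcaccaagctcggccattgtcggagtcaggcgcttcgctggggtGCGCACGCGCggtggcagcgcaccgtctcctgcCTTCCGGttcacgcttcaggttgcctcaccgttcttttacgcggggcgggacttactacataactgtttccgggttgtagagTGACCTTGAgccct
Atp5md: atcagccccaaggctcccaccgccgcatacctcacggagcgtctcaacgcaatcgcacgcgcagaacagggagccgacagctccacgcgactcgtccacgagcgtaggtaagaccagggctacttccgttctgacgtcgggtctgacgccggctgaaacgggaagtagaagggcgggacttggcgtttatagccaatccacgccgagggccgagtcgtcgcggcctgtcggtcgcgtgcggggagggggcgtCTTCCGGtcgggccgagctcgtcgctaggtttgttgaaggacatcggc
Cox7a2l: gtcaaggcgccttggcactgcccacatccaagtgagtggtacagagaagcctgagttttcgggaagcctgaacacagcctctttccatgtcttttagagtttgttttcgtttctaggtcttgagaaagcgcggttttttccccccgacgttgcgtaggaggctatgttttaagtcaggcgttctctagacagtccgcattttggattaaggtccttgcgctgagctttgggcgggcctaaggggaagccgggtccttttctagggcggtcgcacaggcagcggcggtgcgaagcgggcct

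Most members gave strong signals. Of the 90, 82 had a mean log2 signal above the median of all genes (a signal of 113), 75 were bright genes as defined above and 34 were among the 500 brightest genes. Probe sets bind with different strength, so the signals are not compared between genes as transcript levels. Geometric means over the 6 arrays ran from 2510 (Ndufs1, an iron-sulphur subunit) to 6691 (Ndufs8, another) among the core subunits of complex I, and up to 17013 (Ndufa1, a membrane arm subunit) among the accessory subunits. The Ndufaf assembly factors, which build complex I and then leave it, ran from 387 (Ndufaf5) to 3307 (Ndufaf4). Complex II ran from 916 (Sdhc, a membrane anchor) to 7957 (Sdhb, the iron-sulphur subunit), complex III from 4084 (Uqcrc1, a core protein) to 21537 (Uqcrb), and ATP synthase from 4627 (Atp5g1, which encodes the c subunit of the rotor) to 20763 (Atp5g3, a second gene for it). Complex IV spanned the widest range, from 8.53 (Cox8b) to 26626 (Cox6a1). The 8 members below the median of genes were Cox4i2, Cox6a2, Cox6b2, Cox7a1, Cox7b2, Cox8b, Ndufa4l2 and Ndufb4. Ndufb4 was read here only by a dim probe set (21.5 to 57.4), since its other probe sets name several genes, and the probe set of Cox7c (284 to 474) was also dim for a common subunit. The highest and the lowest array differed by less than 1 on the log2 scale for 69 of the 82 members above the median.

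**Figure D1:**
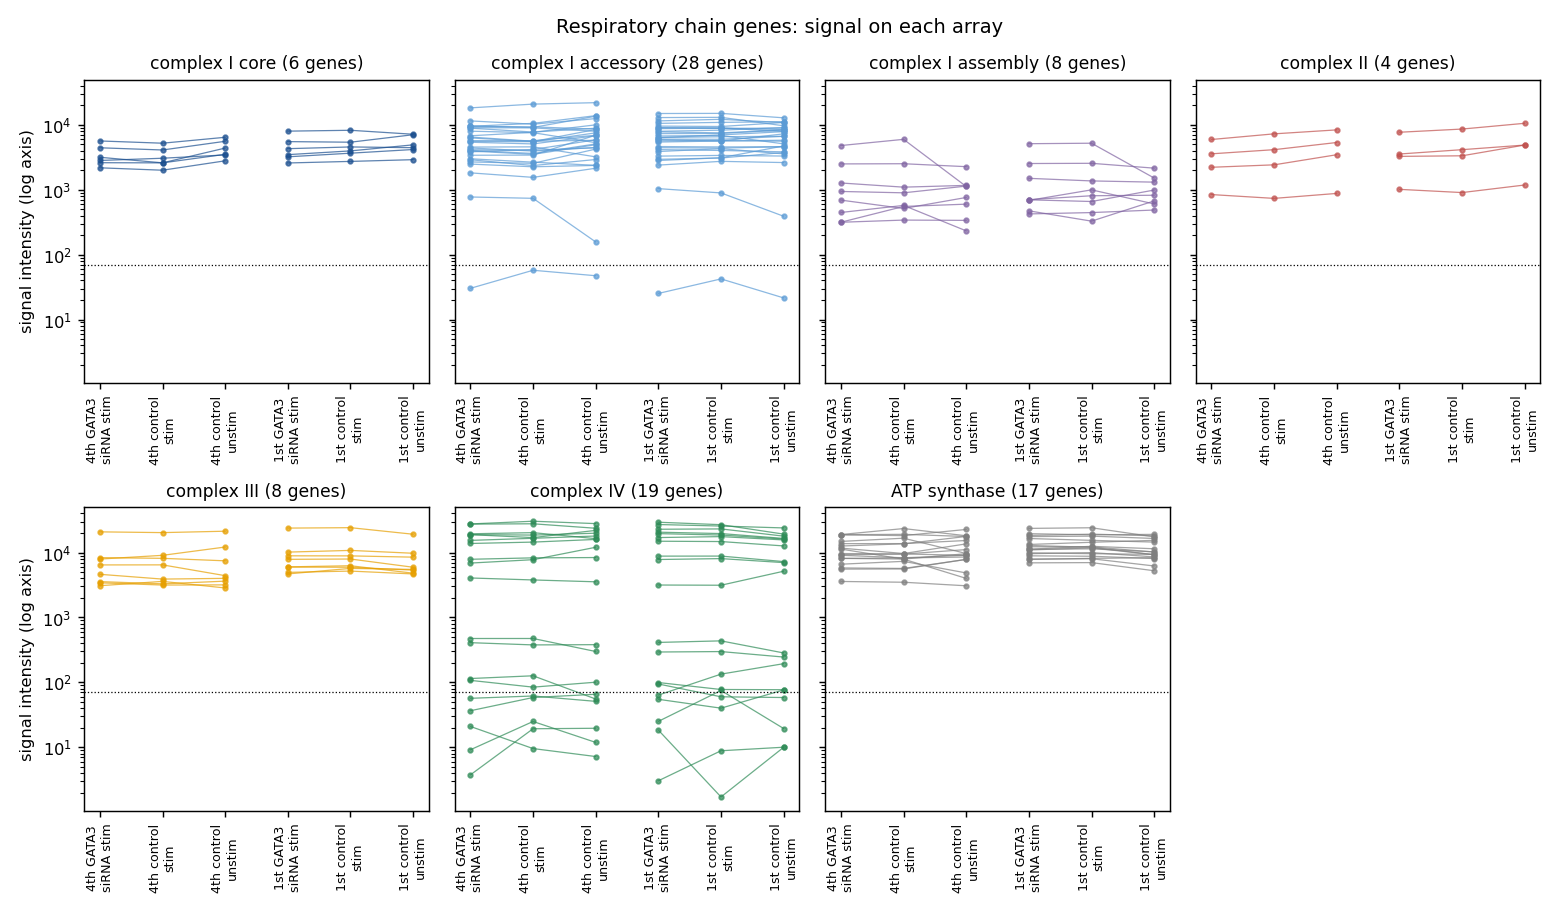
Signal intensity (log axis) of the 90 respiratory chain genes on the 6 arrays, in 1 panel for each complex. Each line is a gene, broken between Th2-4th (left) and Th2-1st cells (right), and the dotted line is the middle of the arrays' median signals; most lines are flat, and the 8 genes below the median of genes are in complex IV and among the accessory subunits of complex I.

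Silencing of GATA3 left the respiratory chain genes close to the stimulated control in both cultures. The median log2 ratio of GATA3 siRNA over control siRNA was 0.02 in Th2-4th cells and -0.02 in Th2-1st cells, beside 0.01 and 0.05 over all genes, and the sign of the Th2-4th median turned in some of the other processings. The robust SD of the members' ratios (the median absolute deviation scaled to a normal SD) was 0.19 in Th2-4th cells and 0.07 in Th2-1st cells, beside 0.51 and 0.47 over all genes and 0.23 and 0.17 over the bright genes. In Th2-4th cells 1 member was over 2-fold and 2 were under 0.5-fold, where 10.6% and 10.6% of all genes were. In Th2-1st cells 1 was over 2-fold and 3 were under 0.5-fold, where 13.3% and 7.49% of all genes were. At 1.5-fold the counts were 1 higher and 5 lower in Th2-4th cells, beside 17.4% and 17.1% of all genes, and 2 higher and 4 lower in Th2-1st cells, beside 21.6% and 12.2%. All the members past 2-fold were among the 8 dim genes. Of the bright genes, 94.6% stayed within 1.5-fold in Th2-4th cells and 94.9% in Th2-1st cells, as did all 75 members among them.

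Among the 82 members above the median only Ndufaf2, an assembly chaperone of complex I, passed 1.5-fold in a knockdown comparison. Its signal was 316 with GATA3 siRNA in Th2-4th cells, against 553 in the stimulated and 599.7 in the unstimulated control, a log2 ratio of -0.81 to the stimulated control. In Th2-1st cells it was 703 with GATA3 siRNA, against 809 and 823, a log2 ratio of -0.20. Both GATA3 siRNA arrays thus read below both controls of their culture, by unequal amounts. The assembly factors also held other ratios at the edge of the group. Ndufaf6, a factor needed early in the assembly of complex I, had log2 ratios of -0.36 in Th2-4th and -0.54 in Th2-1st cells, and Ndufaf7, a methyltransferase needed for complex I assembly, had 0.43 and 0.53. In Th2-4th cells the next lowest were Ndufaf4 (-0.32), Atp5g3 (-0.31) and Sdhb (-0.29). The highest beside Ndufaf7 were Atp5md (0.51), Ndufs5 (0.30), Ndufv1 (0.28) and Atp5d (0.28). Other probe sets did not repeat some of these. For Ndufv1 they gave -0.019 (mean signal 3169) and -0.0053 (2381), for Atp5d -0.087 (4524) and for Ndufaf4 0.14 (819). In Th2-1st cells Uqcrc1 (-0.28), Sdha (-0.22) and Ndufs4 (-0.19) were lowest beside Ndufaf6 and Ndufaf2. Ndufb1 (0.22), Sdhc (0.16), Ndufaf1 (0.13) and Cox6a1 (0.13) were highest after Ndufaf7. The other probe sets of Sdhc (mean signal 553) and Cox6a1 (11107) gave -0.034 and -0.10, while those of Sdha and Ndufs4 above the median of genes stayed below 0. Of the 82, 48 had the same sign in both cultures (21 higher, 27 lower), and of the 4549 bright genes 1363 were higher in both and 1377 lower in both, a similar share. By complex, 5 of the 6 core subunits of complex I were higher with GATA3 siRNA in Th2-4th cells and 1 in Th2-1st cells (medians 0.11 and -0.08), though without cross-hybridising probe sets the first median was -0.0053, and 3 of the 4 complex II genes were lower in each culture (medians -0.17 and -0.10; 0.04 in Th2-1st cells with probe sets averaged). Of all genes above the median, 52.0% were higher with GATA3 siRNA in Th2-4th and 51.1% in Th2-1st cells. The knockdown comparisons of the cultures share no array, but the stimulated controls also enter the comparisons that follow.

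**Figure D2:**
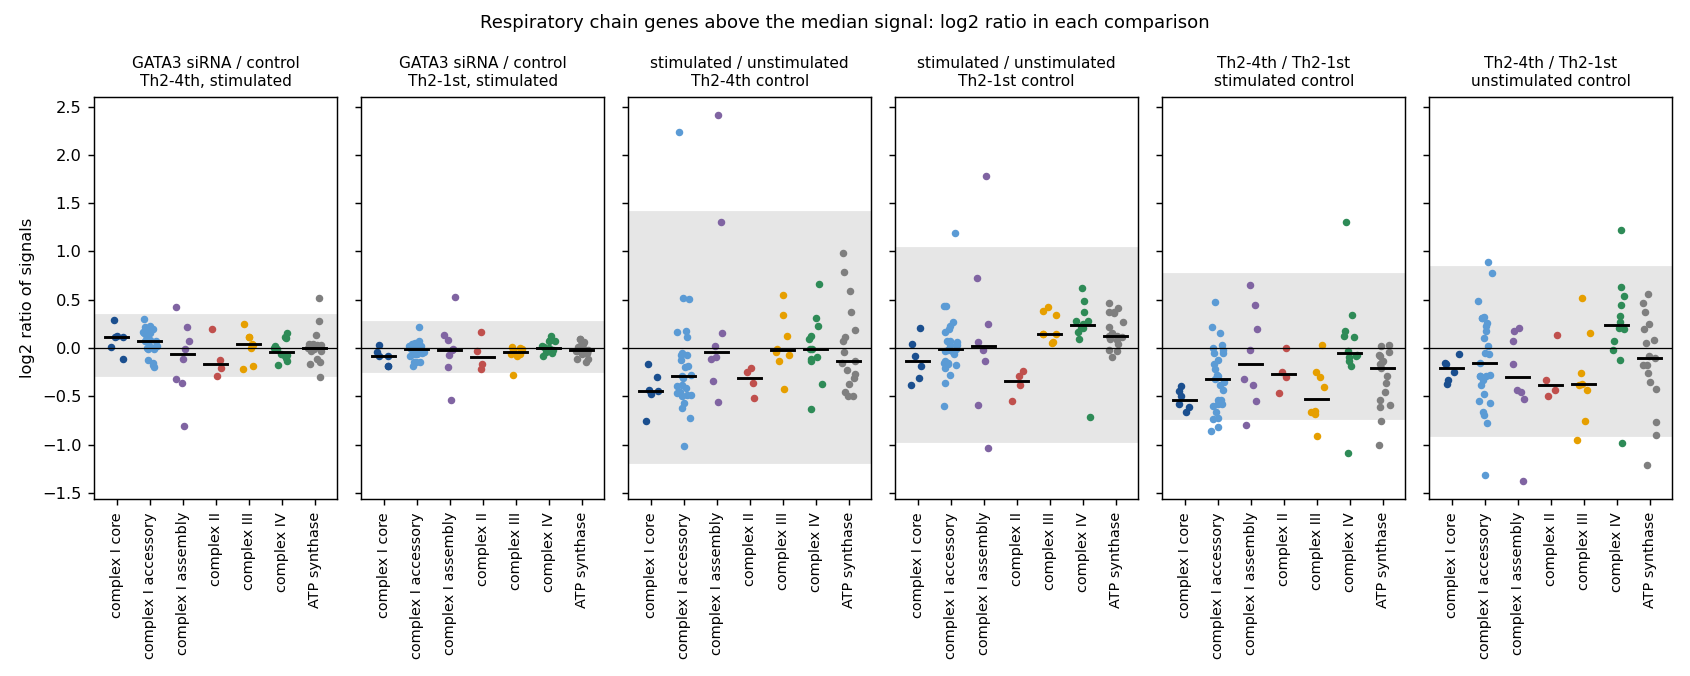
Log2 ratio of signals (vertical axis) of the 82 members above the median of genes in the 6 comparisons, by complex. Points are genes, black bars are medians and the grey band holds the ratios between the 10th and 90th percentile of the 4549 bright genes; the points are narrow in both GATA3 siRNA panels and all core subunits of complex I lie below 0 in the Th2-4th over Th2-1st panels.

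Restimulation through the TCR for 4 h moved few members far, and in different directions by complex. The median log2 ratio of stimulated over unstimulated control cells was -0.13 in Th2-4th cells and 0.07 in Th2-1st cells, beside -0.10 and -0.01 over all genes. The Th2-1st median turned negative after quantile normalization and after centring on spike-in probe sets, which took that of all genes to -0.05 and -0.41. The robust SD was 0.39 and 0.29 for the members, beside 1.15 and 1.0 for all genes and 0.88 and 0.70 for the bright genes. In Th2-4th cells 5 members were over 2-fold and 1 was under 0.5-fold, where 18.7% and 21.6% of all genes were. In Th2-1st cells 3 were over and 2 under, where 17.5% and 16.9% were. At 1.5-fold, 9 members were higher and 5 lower in Th2-4th cells, beside 27.6% and 33.1% of all genes, and 6 were higher and 6 lower in Th2-1st cells, beside 27.3% and 28%. Among the bright genes, 88.0% of the members and 49.0% of all stayed inside 1.5-fold in Th2-4th cells, and 94.7% and 58.5% did in Th2-1st cells.

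Among members above the median of genes, the widest ratios after stimulation belonged to Ndufaf4, an assembly factor of complex I whose promoter is printed above. It read 4803 with GATA3 siRNA, 5981 in stimulated and 1123 in unstimulated control Th2-4th cells, and 5126, 5214 and 1516 in the same conditions of Th2-1st cells. The log2 ratios of stimulated over unstimulated control were 2.41 (5.33-fold) in Th2-4th and 1.78 (3.44-fold) in Th2-1st cells. A second probe set of Ndufaf4, with a mean signal of 819, gave 1.30 and 1.38. Ndufb1, a small accessory subunit of the membrane arm, read 774, 738 and 157 in Th2-4th cells (GATA3 siRNA, stimulated control, unstimulated control) and 1040.5, 894 and 390.5 in Th2-1st cells. The ratio of stimulated over unstimulated control was 4.70-fold in Th2-4th and 2.29-fold in Th2-1st cells. Ndufaf6 read 446, 573 and 232 in Th2-4th and 685, 996 and 604 in Th2-1st cells in that order of conditions, 2.47-fold and 1.65-fold higher in the stimulated control. Within each culture the stimulated arrays were above the unstimulated one, while the unstimulated Th2-1st array lay above both stimulated Th2-4th ones.

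Other members of complex I read lower after stimulation. Ndufaf7 had 692, 514 and 761 in Th2-4th cells and 473, 328 and 673 in Th2-1st cells (GATA3 siRNA, stimulated control, unstimulated control), with log2 ratios of stimulated over unstimulated control of -0.56 and -1.03. In each culture the GATA3 siRNA array lay between the controls. Ndufa6, an accessory subunit that holds the mitochondrial acyl carrier protein, read 3402, 3422 and 6932 in Th2-4th cells and 2946, 3085 and 3752 in Th2-1st cells. The unstimulated Th2-4th array stood above the other 5, and the log2 ratio of stimulated over unstimulated control was -1.02 in Th2-4th and -0.28 in Th2-1st cells. Ndufb10, an accessory subunit of the membrane arm, gave -0.73 and -0.60, Ndufv3 gave -0.62 in Th2-4th cells, and Ndufaf3 gave -0.59 in Th2-1st cells.

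**Figure D3:**
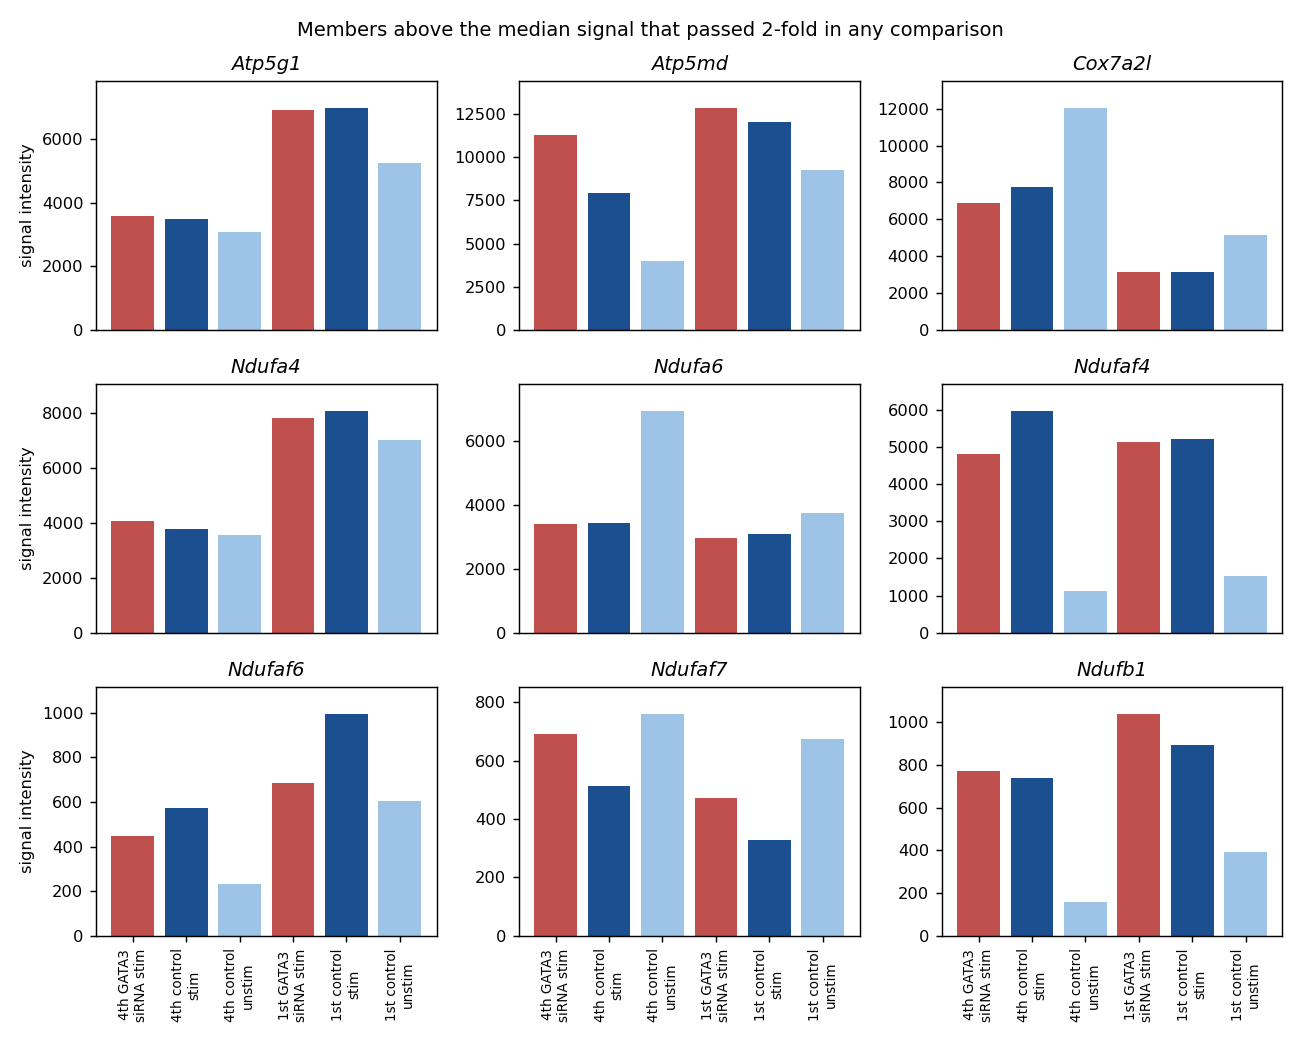
Signal intensity (linear axis from 0) of the 9 members above the median of genes that passed 2-fold in any comparison, on the 6 arrays. Red bars are GATA3 siRNA, dark blue bars stimulated control and light blue bars unstimulated control, each a single array, with Th2-4th cells on the left; Ndufaf4 and Ndufb1 are low on both unstimulated arrays, and Cox7a2l is high on all 3 Th2-4th arrays.

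The core subunits of complex I, which carry the flavin and the iron-sulphur clusters, were lower after stimulation in all 6 cases in Th2-4th cells (median log2 ratio -0.44, range -0.76 to -0.17) and in 4 of 6 in Th2-1st cells (median -0.14). Ndufv1, which binds the flavin that takes electrons from NADH, had the largest difference in Th2-4th cells, with 3165 with GATA3 siRNA, 2599 in stimulated and 4388 in unstimulated control Th2-4th cells, and 3476, 3968 and 4922 in Th2-1st cells. In both cultures the stimulated arrays read below the unstimulated control. The 27 accessory subunits above the median had a median of -0.29 in Th2-4th cells (6 higher) and -0.01 in Th2-1st cells (12 higher). Of all genes above the median, 40.8% were higher after stimulation in Th2-4th and 41.8% in Th2-1st cells.

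The 4 subunits of complex II were lower in the stimulated control in both cultures, with medians of -0.31 in Th2-4th and -0.34 in Th2-1st cells. This held after median centring and quantile normalization. It also held after spike-in centring, which lowers every stimulation ratio and so could not turn it. With probe sets averaged, 3 of the 4 were lower in Th2-4th cells. None passed 1.5-fold in any comparison by the probe set used. Sdhd, a membrane anchor whose promoter is printed above, read 2220.4 with GATA3 siRNA, 2421 in stimulated and 3465 in unstimulated control Th2-4th cells, and 3269, 3336 and 4890.4 in Th2-1st cells. Its log2 ratios of stimulated over unstimulated control were -0.52 and -0.55, and a second probe set of Sdhd, with a mean signal of 1004, gave -0.47 and -1.06. Sdhb, the iron-sulphur subunit, gave -0.20 and -0.29, and read lowest in each culture with GATA3 siRNA (5949 in Th2-4th and 7697 in Th2-1st cells, against 7269 and 8617 in the stimulated controls). The other anchor Sdhc gave -0.25 and -0.39, and its second probe set, with a mean signal of 553, gave 0.19 and -0.37. The flavin-binding subunit Sdha gave -0.37 and -0.24, its second probe set, with a mean signal of 2017, gave -1.45 and -0.77, and another, with a mean signal of 202, gave 0.0096 and 0.55.

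Complexes III and IV and ATP synthase, counted over members above the median, leaned the other way in Th2-1st cells. Stimulated over unstimulated control, 8 of 8 genes of complex III, 11 of 12 of complex IV and 14 of 17 of ATP synthase were higher in Th2-1st cells, with median log2 ratios of 0.15, 0.24 and 0.13, against 3, 5 and 7 genes and medians of -0.02, -0.01 and -0.13 in Th2-4th cells. The medians in Th2-1st cells kept their sign after median centring but turned to -0.25, -0.16 and -0.27 after spike-in centring, and that of ATP synthase to -0.07 after quantile normalization. Spike-in centring also took the median of the bright genes in Th2-1st cells from -0.01 to -0.41. Cox7c (0.62) and Cox6a1 (0.48) had the highest log2 ratios in Th2-1st cells among the 12 complex IV genes above the median. Atp5md, which helps to join ATP synthase into dimers, read 11315, 7919 and 4001 in Th2-4th cells (GATA3 siRNA, stimulated control, unstimulated control) and 12887, 12064 and 9287 in Th2-1st cells. The unstimulated array was the lowest of each culture and the GATA3 siRNA array the highest. Atp5b, the catalytic beta subunit, read 14847, 16653 and 9673 in Th2-4th cells, a stimulation ratio of 1.72, and 18365, 19220.4 and 18132 in Th2-1st cells, a ratio of 1.06. Cox7a2l, placed by its name with complex IV, was lower after stimulation in both cultures (log2 ratio -0.64 in Th2-4th and -0.72 in Th2-1st cells).

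Set against each other, the stimulation ratios of the cultures differed mostly in one direction. The log2 ratio in Th2-4th cells minus that in Th2-1st cells had a median of -0.23 over the 82 members above the median and was below 0 for 61 of them, beside a median of -0.02 and 51.6% over the bright genes. By sign, 22 members were higher after stimulation in both cultures, 28 were lower in both, 29 were lower in Th2-4th and higher in Th2-1st cells and 3 the reverse. Of the 4549 bright genes, 1837 were higher in both, 1982 lower in both, 421 lower in Th2-4th and higher in Th2-1st cells and 309 the reverse. The median of the difference was -0.22 after median centring and -0.19 after quantile normalization, but 0.04 after spike-in centring. Centring of arrays adds the same amount to this difference for every gene. The distance between the members and the bright genes therefore stays as it was under both centrings. The spike-in signal was lowest on the unstimulated Th2-1st array (6024) and 7939 to 9292 on the others. By complex the median difference was -0.32 for the core and -0.26 for the accessory subunits of complex I, -0.22 for complex III, -0.29 for complex IV and -0.25 for ATP synthase, but 0.06 for complex II and 0.19 for the assembly factors. The difference has no test, since each ratio rests on 2 arrays. For each gene it equals the Th2-4th over Th2-1st ratio in stimulated controls minus that in unstimulated controls, from the same arrays. A larger lowering in stimulated than in unstimulated cells, given below, is therefore the same result and not a second one.

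**Figure D4:**
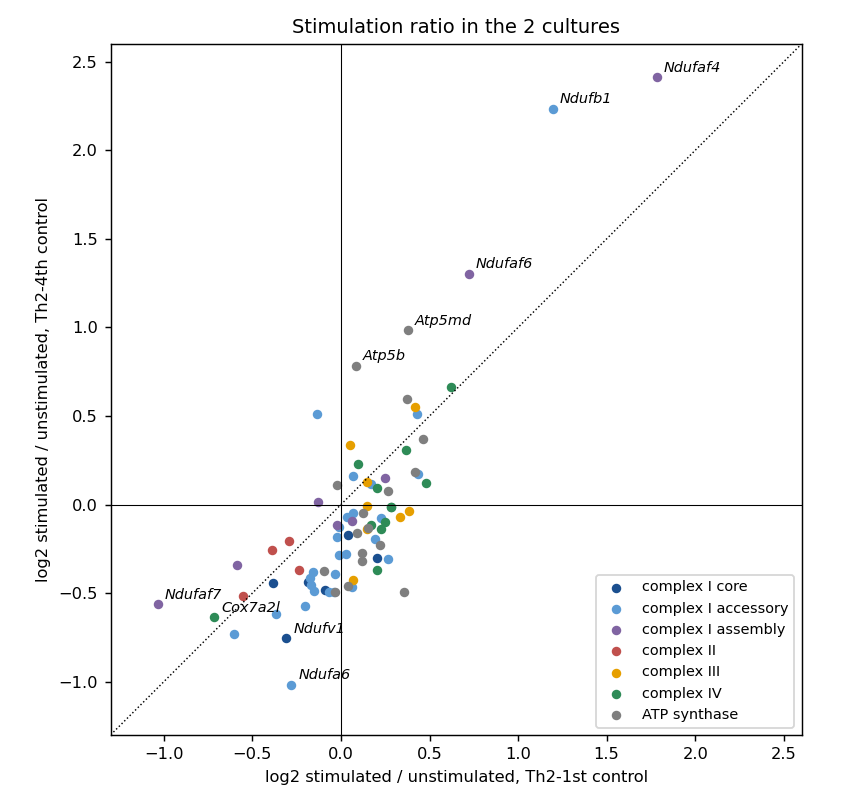
Log2 ratio of stimulated over unstimulated control in Th2-4th cells (vertical axis) against that in Th2-1st cells (horizontal axis) for the 82 members above the median of genes, coloured by complex. The dotted line marks equal ratios; 61 of the 82 points lie below it, and Ndufaf4, Ndufb1 and Ndufaf6 lie above it at the upper right.

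Th2-4th cells read lower than Th2-1st cells for most respiratory chain genes. The median log2 ratio of Th2-4th over Th2-1st was -0.26 in stimulated and -0.16 in unstimulated control cells. Medians were 0.10 and 0.17 over all genes and -0.01 and -0.01 over the bright genes. The members' median stayed below 0 in every processing tried. Median centring and spike-in centring lower every ratio of these comparisons, however, so they could not turn it. In stimulated controls 66 of the 82 members above the median were lower in Th2-4th cells, and in unstimulated controls 49 were. Thus 19.5% and 40.2% of the 82 were higher, beside 51.3% and 53.1% of all genes above the median. In stimulated controls 3 members were over 2-fold and 4 under 0.5-fold, where 17.2% and 12.7% of all genes were, and 5 were over 1.5-fold and 20 under it, where 28.3% and 20.7% were. In unstimulated controls 2 were over 2-fold and 4 under 0.5-fold, where 19.5% and 12.3% of all genes were, and 6 were over 1.5-fold and 13 under it, where 32.2% and 20.3% were. The 20 of 90 members lower by 1.5-fold in stimulated cells are close to the share over all genes, and the 5 higher ones are fewer. Against the bright genes the lower share was larger in stimulated controls, at 17 of the 75 bright members (22.7%) beside 14.3%. In unstimulated controls it was smaller, at 9 of the 75 beside 19.5%. Higher by 1.5-fold were 1 of the 75 in stimulated controls, beside 14.9% of the bright genes, and 3 in unstimulated controls, beside 17.5%. The members took 2.78% of the summed signal of all genes in stimulated Th2-4th control cells and 3.38% in stimulated Th2-1st control cells, and 3.12% and 3.34% in the unstimulated controls.

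All 6 core subunits of complex I were lower in Th2-4th cells. The median log2 ratio was -0.54 (range -0.66 to -0.40) in stimulated and -0.21 (range -0.37 to -0.06) in unstimulated controls. All 6 stayed lower under the 3 other scalings, of which only quantile normalization could have turned them. For Ndufs8, 4 other probe sets (mean signals 1752 to 6471) gave -1.27 to -0.75 in stimulated cells. The dimmest (326) gave 0.61 and the one used -0.66. Of the 27 accessory subunits above the median, 23 were lower in stimulated cells, with Ndufs5 (-0.86) and Ndufs4 (-0.82) lowest. The other probe sets of Ndufs4 were dimmer and gave -0.081 (mean signal 448), 0.38 (145) and 0.31 (110). Ndufa1 was higher in both comparisons (0.47 stimulated, 0.78 unstimulated). Complex III had a median of -0.53 in stimulated cells, with 7 of 8 genes lower. Its small subunit Uqcr11 gave -0.91 in stimulated and -0.76 in unstimulated controls. Uqcrc1 read 3085, 3596 and 2847 in Th2-4th cells (GATA3 siRNA, stimulated control, unstimulated control), against 4687, 5703 and 5499 in Th2-1st cells. Of ATP synthase, 15 of 17 genes were lower in stimulated cells (median -0.21). Complex IV had medians of -0.05 in stimulated and 0.24 in unstimulated cells, and the second of these turned to -0.01 after median centring and -0.26 after spike-in centring. The median of the bright genes in unstimulated cells went from -0.01 to -0.26 and -0.51 under these centrings.

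Single members stood out from their complex between the cultures. Ndufa4, now counted as a subunit of complex IV, read 4058, 3784 and 3543 in Th2-4th cells (GATA3 siRNA, stimulated control, unstimulated control), against 7815, 8071 and 7004 in Th2-1st cells. The log2 ratios of Th2-4th over Th2-1st were -1.09 in stimulated and -0.98 in unstimulated controls. Atp5g1, for the c subunit, read 3586, 3489 and 3076 in Th2-4th cells, against 6942, 7002 and 5248 in Th2-1st cells. This probe set may cross-hybridise, and the other of Atp5g1 was dim (mean signal 7.34) with a log2 ratio of 0.011 in stimulated controls, where the first gave -1.01. Cox7a2l ran the other way, at 6889, 7768 and 12065 in Th2-4th cells, against 3160.5, 3137 and 5157 in Th2-1st cells. The ratio of Th2-4th over Th2-1st was 2.48-fold in stimulated and 2.34-fold in unstimulated controls. Its other probe sets, with mean signals of 4160 and 4957, gave log2 ratios of 1.01 and 0.95 in stimulated controls and 1.07 and 1.19 in unstimulated ones. Ndufaf6 (-1.38), Ndufb1 (-1.32) and Atp5md (-1.21) were past 2-fold lower in unstimulated Th2-4th cells, and their ratios in stimulated cells were smaller (-0.80, -0.28 and -0.61). Ndufa6 was 0.89 in unstimulated and 0.15 in stimulated controls, and Ndufaf7 and Ndufaf3 were among the highest in stimulated cells (0.65 and 0.44). The actin 3' over 5' ratio was 1.32 to 1.37 on the Th2-4th arrays and 1.02 to 1.24 on the Th2-1st arrays, and the summed signal of 7 myeloid markers was 709, 713 and 785 on the Th2-4th arrays (GATA3 siRNA, stimulated control, unstimulated control), against 443, 368 and 409 on the Th2-1st arrays, with Lyz2 and Itgam below each array median and 1 of the 7 above it on all 6. The part of either in these ratios was not tested.

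Several complex IV subunits have isoforms used in other tissues, and most of these were dim here. The muscle isoforms Cox6a2 (55.3 to 126), Cox7a1 (40.0 to 107) and Cox8b (3.04 to 20.9), the lung isoform Cox4i2 (50.9 to 94.3) and the isoform Cox7b2 (1.71 to 19.6) gave weak signals, with Cox6a2 above the array median on 5 of 6 arrays, Cox7a1 on 4, Cox4i2 on 1 and the others on none. The common isoforms Cox6a1, Cox7a2, Cox8a and Cox4i1 had mean signals of 26626, 19857, 8222 and 16690. Cox8c, known from human testis, read 245 to 409 and was above the array median on all 6 arrays, with log2 ratios of Th2-4th over Th2-1st of 0.34 and 0.63 in stimulated and unstimulated controls. Cox6b2, also known from testis, read 36.5, 58.4 and 65.5 in Th2-4th cells (GATA3 siRNA, stimulated control, unstimulated control) and 63.6, 134 and 194 in Th2-1st cells, and only both Th2-1st controls were above their array median. Its log2 ratio of GATA3 siRNA over control was -0.68 in Th2-4th and -1.07 in Th2-1st cells, and that of the common isoform Cox6b1 was 0.15 and 0.07. Ndufa4l2, an isoform of Ndufa4 known to be induced by hypoxia, read 9.14, 24.9 and 11.9 in Th2-4th and 25.0, 74.9 and 19.4 in Th2-1st cells. In each culture the stimulated control was the highest, but only that of Th2-1st cells was above its array median. Its log2 ratios were -1.45 and -1.58 for GATA3 siRNA over control and 1.07 and 1.95 for stimulated over unstimulated control, in Th2-4th and Th2-1st cells in that order. Past 2-fold, Cox6b2 was lower in Th2-4th over Th2-1st controls (-1.20 stimulated, -1.57 unstimulated), and so was Ndufa4l2 in stimulated controls (-1.59). Cox6a2 was higher in stimulated over unstimulated Th2-4th control cells (log2 ratio 1.19) and Cox7a1 in Th2-4th over Th2-1st stimulated controls (1.08).

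Some lists of other mitochondrial genes had medians further from 0 than the chain itself. The 17 measured genes of protein import and folding had a median stimulation log2 ratio of 0.95 in Th2-4th cells, with 8 over 2-fold, and 0.82 in Th2-1st cells, with 5 over 2-fold, where 18.7% and 17.5% of all genes were; none was under 0.5-fold. Hspa9, the motor chaperone of import, read 8544 in stimulated and 1541 in unstimulated Th2-4th control cells, and 11115 and 4645 in Th2-1st cells. Hspd1, the matrix chaperonin, read 16154 and 3865 in Th2-4th and 21062 and 9358 in Th2-1st cells in that order. Both were lower in Th2-4th cells, by more on the unstimulated array than on the stimulated one, and the list had a median of -0.37 in stimulated and -0.73 in unstimulated cells for Th2-4th over Th2-1st. The 76 measured mitochondrial ribosomal protein genes had stimulation medians of 0.11 in Th2-4th cells (9 over 2-fold, 3 under 0.5-fold) and 0.13 in Th2-1st cells (4 over), shares below those of all genes, and medians of -0.51 and -0.42 for Th2-4th over Th2-1st in stimulated and unstimulated controls, with 6 and 9 under 0.5-fold, where 12.7% and 12.3% of all genes were, and none over 2-fold. Cycs, the somatic cytochrome c that carries electrons from complex III to IV, had stimulation log2 ratios of 1.20 in Th2-4th and 0.67 in Th2-1st cells, and Cyc1, a subunit of complex III outside the Uqcr names, had 0.29 and 0.19.

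None of the 12 measured citric acid cycle genes passed 2-fold in any of the 6 comparisons, and their median log2 ratios lay between -0.30 and 0.02. None of the 7 genes of carriers, porins and uncouplers passed 2-fold either. Of the 10 genes of mitochondrial DNA upkeep and transcription, 1 did, the polymerase subunit Polg2 (-1.34 after stimulation in Th2-4th cells). Assembly factors of complexes II and III had a stimulation median of -0.84 in Th2-4th cells, with 4 of 10 under 0.5-fold (21.6% of all genes) and 1 over 2-fold, and -0.01 in Th2-1st cells. Of the 4, Lyrm7 read 5.75 in stimulated and 29.8 in unstimulated Th2-4th control cells, below the array medians. Assembly factors of complex IV had stimulation medians of -0.21 and -0.05. Of the 12 regulators of nuclear respiratory genes, 4 were over 2-fold after stimulation in Th2-4th cells and 2 in Th2-1st cells, where 18.7% and 17.5% of all genes were, and 1 of the 4, Ppargc1a, read 48.6 in stimulated and 19.1 in unstimulated Th2-4th cells, below the array medians. Gabpb1, a partner of the ETS factor Gabpa, read 1731 in stimulated and 252 in unstimulated Th2-4th control cells, and 1928 and 329 in Th2-1st cells. Myc read 5218 and 299 in Th2-4th and 4939 and 1841 in Th2-1st cells in that order, and Pprc1, a coactivator related to Ppargc1a, read 2525 and 343, and 2309 and 1326. Each was higher on the stimulated array of its culture. The list as a whole had stimulation medians of 0.18 in Th2-4th and 0.11 in Th2-1st cells, with 7 of 12 higher in each. Gabpb2 (-0.89 and -0.32), Esrra (-0.75 and -0.55), Creb1 (-0.46 and -0.79) and Yy1 (-0.14 and -0.38) were lower in both cultures. Gabpa gave -0.59 and 0.09. Nrf1 itself stayed between 613 and 853 over the 6 arrays. ND5 was the only measured subunit gene of complex I from the mitochondrial genome. It read 10848, 13936 and 15156 in Th2-4th cells (GATA3 siRNA, stimulated control, unstimulated control), against 9377, 7968 and 6734 in Th2-1st cells. The nuclear core subunits of complex I read lower in Th2-4th than in Th2-1st control cells. The 16 members above the median with an NRF1 match had a stimulation median of -0.22 in Th2-4th and 0.04 in Th2-1st cells, beside -0.17 and 0.07 for the 53 members without one.

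**Figure D5:**
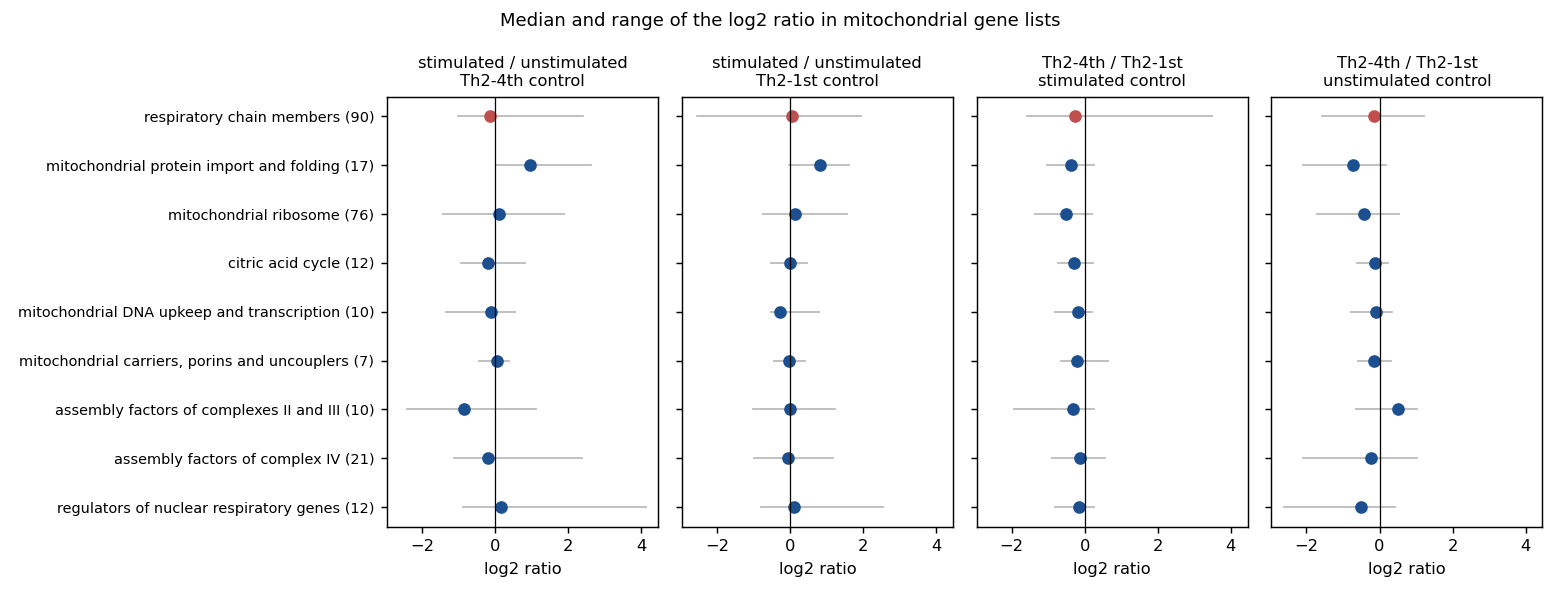
Median (dot) and lowest to highest log2 ratio (grey line) of the 90 respiratory chain members (red) and of 8 lists of other mitochondrial genes and regulators (blue), with the number of genes in brackets, in the comparisons of stimulation and of culture. The import and folding list lies to the right of 0 after stimulation, with medians of 0.95 and 0.82, and the mitochondrial ribosome lies to the left in Th2-4th over Th2-1st, with medians of -0.51 and -0.42.

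Of the 90 members, 51 had several probe sets. For 44 members with a second probe set above the median of genes, the log2 ratios of the pair had the same sign in 27 to 37 genes, by comparison, and the median gap between them was 0.07 to 0.16, beside 0.13 to 0.29 for the 2760 bright genes with such a pair. The medians over the second probe sets were -0.39 for Th2-4th over Th2-1st in stimulated and -0.28 in unstimulated controls, beside -0.27 and -0.14 over the first. Of the 89 other probe sets, 23 differed from the one used by over 1 in at least 1 comparison, and 8 of these were above the median of genes (Atp5d, Atp5j2, Cox5b, Ndufab1, Ndufaf4, Ndufs4, Ndufs8 and Sdha). The other 15 were dim. Ndufs4, an accessory subunit, had a second probe set (mean signal 145) with stimulation log2 ratios of 1.35 in Th2-4th and 1.08 in Th2-1st cells, where the first gave -0.47 and 0.06. For Atp5d, the delta subunit of ATP synthase, the ratio of Th2-4th over Th2-1st in unstimulated controls was 0.56 by the brighter probe set and -0.44 by the other, which had a mean signal of 4524.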

How the data were processed

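Total RNA (TRIzol) was biotin-labelled and hybridised to Affymetrix Mouse Genome 430 2.0 arrays, 1 for each of 6 conditions. The deposited values are linear intensity per probe set, which the authors made with Affymetrix Expression Console, whose version and algorithm the sources used here do not give. Each array held 45101 probe sets, and the mean signal after trimming 2% at each end was 500. The authors worked with ratios of 2 arrays and no test.

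A single gene was named by 34958 of them in the platform annotation, and 99.4% of these were matched to RefSeq and given its current symbol. Where a gene had several probe sets, that of highest mean log2 signal stood for it. Ratios were log2 differences of the deposited signals without further scaling or a floor, computed with Python 3.11.15, numpy 2.4.6 and pandas 2.3.3, and plotted with matplotlib 3.10.9. The code was checked on simulated data. Each comparison lists the members over 2-fold and under 0.5-fold beside the share of all genes, and medians beside those of all genes and of the 4549 genes brightest by mean log2 signal. Averaged probe sets, exclusion of probe sets with the suffixes _x, _s and _a, median centring, quantile normalization, centring on spike-in probe sets, a floor at the array median, a limit to brighter members, a 1.5-fold threshold and platform symbols were tried as alternatives. The array number limits precision, and no interval can be given.

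The genes named are, for each comparison, the 5 highest and 5 lowest log2 ratios among members above the median of genes. Named too is every member past 2-fold whose higher signal of the pair lay above the median of that array. Cox7b2, Cox8b and Ndufb4 passed 2-fold only below it, and not all such ratios are given. The brightest and dimmest of each complex and the tissue isoforms are also named. Of probe sets that disagree with the one used by over 1 on the log2 scale, those above the median of genes are named. The members, the lists of other mitochondrial genes and the markers of T, Th2, CD8 T and NK, B, myeloid, mast, stromal and erythroid cells were chosen with earlier results of these data known. Summed marker signals ranged from 43909 to 81212 for T cells, 4313 to 164780.0 for Th2 cells, 345 to 1133 for CD8 T and NK cells, 149 to 260.1 for B cells, 368 to 785 for myeloid cells and 7.38 to 31.5 for erythroid cells. The other lists gave median stimulation log2 ratios of -0.47 in Th2-4th and -0.54 in Th2-1st cells (4 assembly factors of ATP synthase) and -0.24 and -0.18 (11 assembly factors of complex I outside the Ndufaf names).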

Additional observations from a re-analysis of the deposited data

Results flagged for a closer look

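Among the 90 members, 2 dim complex IV isoforms had knockdown ratios past 2-fold in opposite directions in the cultures. Cox7b2 had a log2 ratio of GATA3 siRNA over control siRNA of -2.36 in Th2-4th cells and 3.42 in Th2-1st cells. Cox8b had 1.13 in Th2-4th cells and -1.54 in Th2-1st cells. Both genes were below the median signal of all 6 arrays, and with 1 array per condition the difference between the cultures was not tested.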

How the results depend on the processing

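No paired analysis was possible because each condition had 1 array and no result came from a test; for the same reason no replicate could be left out. Over the alternatives, the median log2 ratio of the members stayed below 0 for Th2-4th over Th2-1st in stimulated (-0.50 to -0.21) and unstimulated controls (-0.66 to -0.10, -0.66 with spike-in centring), for stimulation in Th2-4th cells (-0.25 to -0.09) and for knockdown in Th2-1st cells (-0.19 to -0.0061, -0.19 with median centring). Median centring and spike-in centring lower every ratio between the cultures and every knockdown ratio in Th2-1st cells. Spike-in centring also lowers every stimulation ratio. Where a median was already below 0, these settings could not turn it. Median centring took the median of all genes for Th2-4th over Th2-1st in unstimulated controls to -0.07, against 0.17 as deposited. The members' median minus that of all genes was -0.33 there as deposited, which a shift of whole arrays cannot change, and -0.22 with quantile normalization. The knockdown median in Th2-4th cells turned to -0.0062 with probe sets averaged and -0.038 without cross-hybridising probe sets, which left 72 members. The stimulation median in Th2-1st cells turned to -0.071 with quantile normalization and -0.33 with spike-in centring, a setting chosen after seeing the data. The medians of all genes were -0.05 and -0.41 in these settings. Atp5g1 turned to a log2 ratio of 0.011 for Th2-4th over Th2-1st in stimulated controls without cross-hybridising probe sets. The cause of these turns was not tested beyond the change of probe set itself.

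Counts past 2-fold were small and moved with the setting. With probe sets averaged, 5 members were over 2-fold after stimulation in Th2-1st cells and 2 under 0.5-fold in Th2-4th cells. Without cross-hybridising probe sets, 2 were over 2-fold with knockdown in Th2-1st cells and 2 under 0.5-fold after stimulation in Th2-4th cells. With median centring, 0 were under 0.5-fold after stimulation in Th2-4th cells, and for Th2-4th over Th2-1st 0 were over and 10 under in unstimulated and 8 under in stimulated controls. With quantile normalization, 1 was under 0.5-fold after stimulation in Th2-1st cells and 1 over 2-fold for Th2-4th over Th2-1st in unstimulated controls. With the array median as a floor for low signals, and likewise with only members above the median of genes, 0 were over and 0 under with knockdown in either culture, 1 was under after stimulation in Th2-1st and 3 were over in Th2-4th cells, and for Th2-4th over Th2-1st 1 was over in unstimulated controls and 1 over and 2 under in stimulated controls. At 1.5-fold, 2 were higher with knockdown in Th2-1st and 5 lower in Th2-4th cells, 6 higher and 6 lower after stimulation in Th2-1st and 9 higher and 5 lower in Th2-4th cells, and for Th2-4th over Th2-1st 6 higher and 13 lower in unstimulated and 5 higher and 20 lower in stimulated controls. Of 129 ratios of members past 2-fold recomputed under the alternatives, 110 stayed past it, 18 did not and 1 turned sign. Platform symbols in place of updated ones changed nothing. Dim probe sets limit what can be said of the 8 members below the median of genes.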
